A study of Daphnia magna with 48 samples.

Results

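The genes described here are the 56 rows of a whole-body RNA sequencing table of the water flea Daphnia magna whose level varied most between libraries of one treatment and day. The table has 16066 rows, and 10454 of them met the level criteria, which were a mean over 48 libraries of 5 to under 1000 CPM and a median of at least 1 CPM. CPM is the count of a row divided by the library total and multiplied by 1e+06. A row became a member when its pooled standard deviation (SD) of log2(CPM+1), taken within the 12 groups of libraries, was 1 or more. That threshold left 56 members, 0.536% of the rows that met the level criteria, and 10398 other rows, which serve as the background below. The SDs chose the members, so the SDs, the deviations of single libraries and the sets formed from them are given as a description, with no test.

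Animals of a field population, all kept in M4 medium and fed daily, were exposed to copper, to arsenic, to a mixture of both, or to neither as control, for 1, 2 or 4 days. Each treatment and day had 4 libraries of total RNA from whole bodies. The sources used here do not give the doses, the age, genotype or number of the animals, or whether replicates were grown as separate cultures. A p-value below therefore measures the spread between these libraries alone, and that spread could be technical. Library totals ran from 7.93 M to 20.1 M counts (M, mega) with a median of 13.3 M. Where no read was counted, as many as 3 could have been missed, equal to 0.150 CPM at the greatest depth and 0.378 CPM at the least. These floors, like the counting SDs given below, leave out every error other than that of counting.

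Daphnia is a small crustacean that moults throughout life and, in good conditions, reproduces clonally, carrying its embryos in a brood chamber. A whole-body library holds RNA of gut, muscle, epidermis, fat cells, ovary and any brood at once, so genes used in one tissue or for a short stage add to it in proportion to the cells that use them. A field population can hold more than one genotype. The identifiers begin with Dapma7bEVm and 0 of them were found among the genes of the reference table, so no member is given a name, a function, a place in the genome or a sequence. For the same reason the whole-body label was not checked against marker genes, and members that may share reads with a near-identical copy could not be marked.

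The spread of the members was wide relative to their level and to counting error. Their pooled SD ran from 1.00 to 1.94 with a median of 1.16 log2 units, against a median of 0.235 and a maximum of 0.991 in the other rows. Their mean level ran from 5.01 to 760.3 CPM with a median of 26.2 CPM, against a median of 33.4 CPM in the other rows. Members were thus not confined to the low end of the level window. The SD that counting alone would give them had a median of 0.0883 and a maximum of 0.249, below the threshold of 1 in each member.

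**Figure D1:**
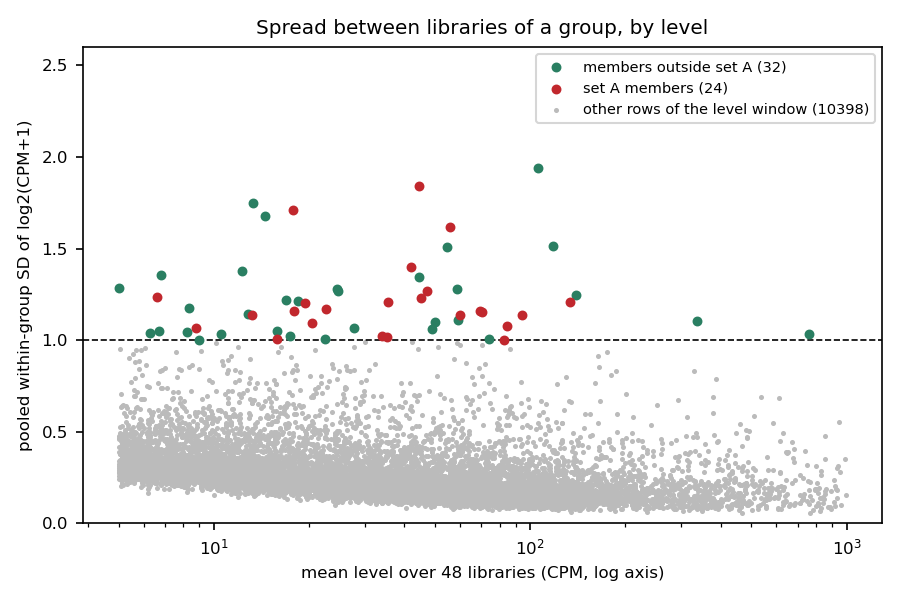
Pooled within-group SD of log2(CPM+1) (vertical axis) against mean level over 48 libraries (CPM, log axis); green and red points are the 56 members, red for the 24 members of set A, grey points the 10398 other rows, and the dashed line is the threshold of 1. Members range from 5.01 to 760.3 CPM, with only Dapma7bEVm016950t1 and Dapma7bEVm016402t1 above 139.7 CPM, and the grey rows thin out gradually towards the line.

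The threshold fell in the tail of a continuous distribution. Just inside it were Dapma7bEVm001768t1 with a pooled SD of 1.001, Dapma7bEVm029249t1 with 1.001 and Dapma7bEVm000581t1 with 1.006. Just outside were Dapma7bEVm024908t1 with 0.991, Dapma7bEVm004222t1 with 0.991 and Dapma7bEVm010312t1 with 0.987. There were 20 members between 1 and 1.1, 28 between 1.1 and 1.5 and 8 between 1.5 and 2, against 26 other rows between 0.9 and 1.

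Most members varied in many groups rather than through 1 stray library. The SD within a single group was 1 or more in 2 to 9 of the 12 groups per member, with a median of 6, and 33 members reached this in at least 6 groups. The library that contributed most to a member's within-group sum of squares held 8.30% to 39.2% of it, with a median of 15.0%, and over 50% in 0 members. Differences between days took a median of 5.52% of a member's total variance, against 20.3% in the other rows. Differences between treatments within a day took 24.7% in members and 15.6% in other rows, and the spread within groups 67.9% and 61.9%. These are raw shares of the sum of squares, not adjusted for the number of groups compared. Spread between libraries alone gives a day share and a larger treatment share, so neither share measures an effect.

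The spread was not even over the groups. Copper on day 2 held 17.2% of the members' within-group sum of squares, against 9.26% of that of the other rows. In that group 41 of the 56 members had an SD of 1 or more. The corresponding numbers of members were 17 for copper, 22 for arsenic, 23 for the mixture and 34 for control on day 1. On day 2 they were 41 for copper, 43 for arsenic, 22 for the mixture and 17 for control, and on day 4 they were 36, 20, 32 and 25 in the same order. Control had the most such members on day 1 and arsenic on day 2. In control on day 1 the other rows were wide as well, since this group held 8.01% of the members' within-group sum of squares and 12.3% of that of the other rows. Arsenic on day 2 held 11.7% of the members' and 9.31% of the other rows', and copper on day 4 held 9.82% and 5.03%. Copper day 2 replicate 3 was the most deviating library for 11 members and copper day 2 replicate 4 for 10, and the largest deviations of the members were distributed over 22 libraries in all.

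Members were grouped by average-linkage clustering on 1 minus Pearson's r of their deviations from the group means over the 48 libraries, divided at an r of 0.5. This gave 8 sets that together held 46 members and left 10 members in none. Set A held 24 members, B and C 5 each, D and E 3 each, and F, G and H 2 each. Correlations here are over 48 libraries, with the mean of each group removed. The points share library, depth and handling, so r is descriptive and carries no p. Over the 1540 pairs of members the mean r was 0.109 and 19.4% of pairs exceeded 0.5, against a mean of 0.0318 and 8.55% in the other rows. A partner at r of 0.8 or more among the members was found for 45 of the 56. Among the other rows 48.4% had such a partner within their own, much larger, number of rows.

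**Figure D2:**
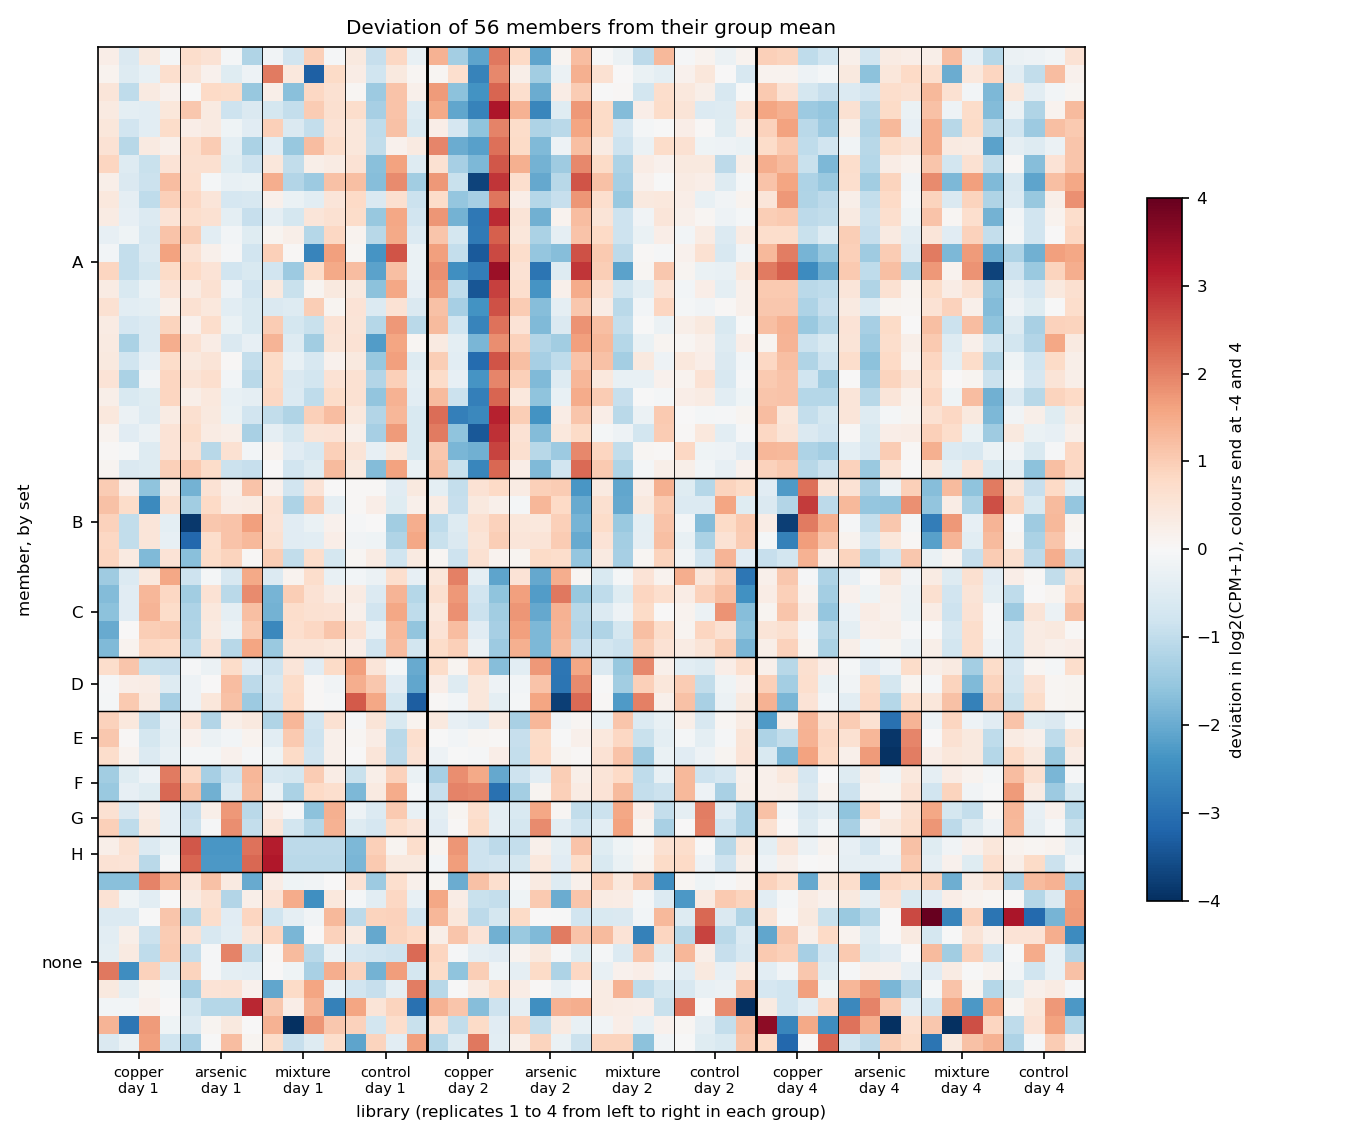
Deviation in log2(CPM+1) from the group mean for each member (rows, by set) in each of the 48 libraries (columns, by day and treatment, replicates 1 to 4 from left to right); red is above and blue below the mean, with colours ending at −4 and 4. The 24 rows of set A change colour together, most strongly in the 4 copper libraries of day 2, where set F also changes most, with the opposite colours in replicates 1 and 4.

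Set A was the largest block of genes that moved together. Its 276 pairs had a median r of 0.82, from 0.24 to 0.98, and its members averaged 6.60 to 133.1 CPM. The members nearest to the mean of the set were Dapma7bEVm015704t1 and Dapma7bEVm009700t1, each with an r of 0.97 with it. The least alike was Dapma7bEVm002449t1, with an r of 0.56 with the mean of the other 23 members.

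The widest spread of set A lay among the copper libraries of day 2. Dapma7bEVm015704t1 had 108.9, 24.4, 5.86 and 227.5 CPM in copper replicates 1 to 4 of day 2, against 123.1, 126.6, 75.2 and 91.0 CPM in the 4 controls. Dapma7bEVm009700t1 had 178.5, 26.6, 4.19 and 372.0 CPM in those copper libraries, against 150.2, 196.6, 124.4 and 187.3 CPM in the controls. Copper replicates 1 and 4 were high and 2 and 3 low in both genes, and copper values lay on both sides of the control range. The controls of that day stayed close together.

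Across the whole set, the mean log2(CPM+1) was 5.49, 3.02, 1.68 and 6.72 in the copper libraries of day 2 (SD 2.29, n = 4) and 5.61, 5.52, 4.98 and 5.42 in the controls (SD 0.276, n = 4). These were the widest and the narrowest of the 12 groups for this set. All 24 members were higher in copper replicate 4 than in replicate 3. Among the 21 members with more than 3 counts in replicate 3, the ratio ran from 12.6-fold in Dapma7bEVm003185t1 to 175-fold in Dapma7bEVm004463t1, with a median of 38.8-fold. Of the 10398 other rows, 28 were over 10-fold higher in replicate 4 and 1 was over 10-fold lower, and the median ratio was 0.933. Few of the other rows thus differed by more than 10-fold between this pair of libraries, while these 21 members all did. The pair was picked as the highest and lowest library of the widest group of set A. Members and other rows were divided by their spread, so this contrast follows at least in part from the choice.

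Set A was also widely spread in arsenic on day 2 and in copper on day 4. The set mean was 4.95, 2.45, 3.68 and 5.81 in arsenic replicates 1 to 4 of day 2. It was 5.25, 5.41, 3.12 and 3.17 in copper replicates 1 to 4 of day 4. In arsenic the 4 libraries were spread evenly between low and high, whereas on day 4 copper replicates 1 and 2 stood together above replicates 3 and 4. Dapma7bEVm009664t1, the member of set A with the widest pooled SD (1.84), had 54.6, 67.7, 1.30 and 2.44 CPM in those copper libraries of day 4. In 18 of the 48 libraries all 24 members lay on the same side of their group mean, above it in 10 and below it in 8.

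**Figure D3:**
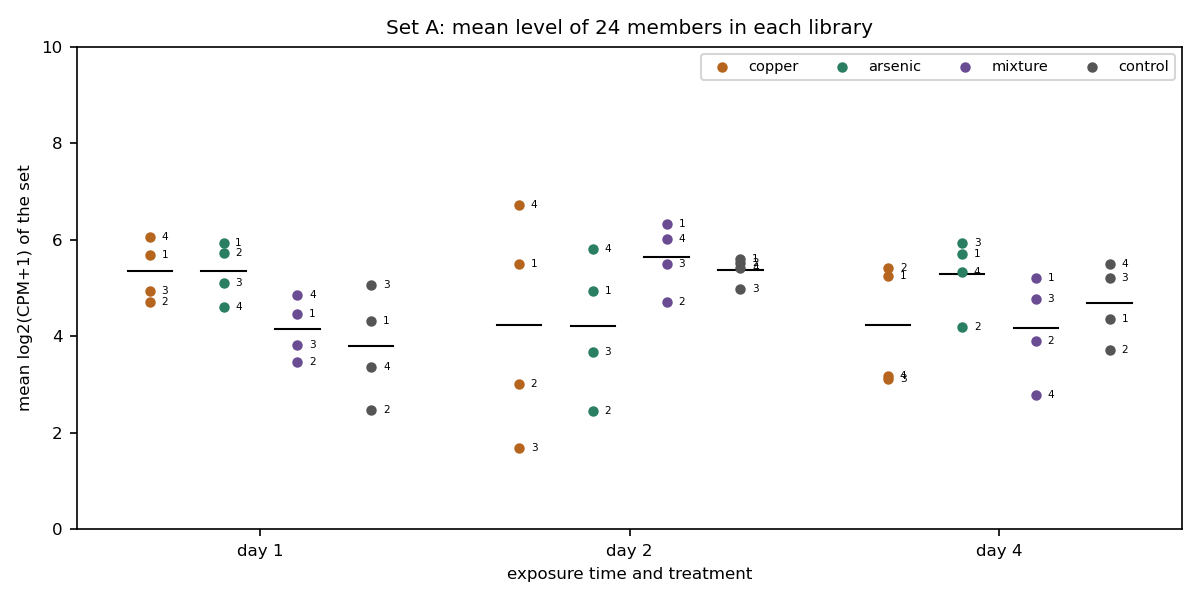
Mean log2(CPM+1) of the 24 members of set A (vertical axis) in each library, by exposure time and treatment; points are libraries with their replicate number and bars are group means. Copper on day 2 reaches from 1.68 to 6.72, while the controls of day 2 lie between 4.98 and 5.61.

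The libraries high in set A followed the replicate numbers in part. Replicate 1 was highest in 4 groups, replicate 2 in 1, replicate 3 in 2 and replicate 4 in 5. Replicate 2 was lowest in 7 groups, replicate 3 in 3, replicate 4 in 2 and replicate 1 in 0. Replicate 1 lay above its group mean in 11 of the 12 groups, replicate 2 in 3, replicate 3 in 4 and replicate 4 in 8. On day 2 replicates 1 and 4 were above it in 4 of 4 groups each and replicate 3 in 0. What the numbers stand for is not given in the labels. The mean pairwise r of the set was 0.652 on day 1, 0.892 on day 2 and 0.76 on day 4 (16 libraries each). By treatment it was 0.907 with copper, 0.837 with arsenic, 0.585 with the mixture and 0.771 in controls (12 libraries each).

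Measures of the libraries themselves followed set A weakly. The r of its mean deviation was −0.11 with the log2 total count, 0.054 with the number of genes with a count and −0.011 with the TMM scaling factor. Against principal components of the deviations of the other rows, the size of r was 0.060 for the first, 0.553 for the second and 0.059 for the third. These components held 25.6%, 9.72% and 9.26% of the variance. The second component thus moved with set A, and its part in the pattern was not tested. Among the other rows, 65 had an r of 0.7 or more with the set and 0 an r of −0.7 or less. Their pooled SDs ran from 0.148 to 0.984 with a median of 0.529. The most alike were Dapma7bEVm009728t1 (r 0.94, pooled SD 0.466) and Dapma7bEVm010139t1 (r 0.9, pooled SD 0.322). The co-varying group was thus larger than the threshold shows, with further rows that moved the same way over a smaller range. Fewer cells of a type and less RNA per cell cannot be told apart in whole-body libraries.

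Set F shared its widest group, copper on day 2, with set A, and sets B, C, D, E, G and H were widest in other groups. Examples of these sets were chosen after their values were seen. The r between the means of different sets lay between −0.354 (C and E) and 0.381 (F and H).

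Set B comprised Dapma7bEVm002161t1, Dapma7bEVm012336t1, Dapma7bEVm015713t1, Dapma7bEVm029052t1 and Dapma7bEVm029249t1, with a median r of 0.82 over 10 pairs. Its spread was widest for copper on day 4 (SD 1.73). Dapma7bEVm015713t1 had 21.8, 0.36, 77.0 and 49.1 CPM in copper replicates 1 to 4 of day 4, and 2.30, 99.6, 104.4 and 147.2 CPM in arsenic replicates 1 to 4 of day 1. Copper replicate 2 and arsenic replicate 1 were the low libraries, and the set mean showed the same order at the low end. In arsenic on day 1 the mean log2(CPM+1) was 2.31 in replicate 1, against 5.48, 5.43 and 5.59 in replicates 2 to 4.

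Set C comprised Dapma7bEVm008537t1, Dapma7bEVm011566t1, Dapma7bEVm018585t1, Dapma7bEVm019522t1 and Dapma7bEVm020279t1, with a median r of 0.91 over 10 pairs. It was widest for arsenic on day 2 (SD 1.74) and narrowest for arsenic on day 4 (SD 0.188). Dapma7bEVm011566t1 had 22.4, 0.591, 31.7 and 1.65 CPM in arsenic replicates 1 to 4 of day 2, and 7.29, 11.8, 14.7 and 0.279 CPM in the 4 controls of that day. Arsenic replicates 2 and 4 and control replicate 4 were low, and the arsenic and control ranges overlapped. In arsenic on day 4 the same gene had 34.2, 26.8, 35.0 and 25.4 CPM, a narrow range.

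Set D comprised Dapma7bEVm001220t1, Dapma7bEVm001223t1 and Dapma7bEVm003984t1. Its 3 pairs had r between 0.80 and 0.97, and it was widest for arsenic on day 2 (SD 2.31). Dapma7bEVm003984t1 had 37.3, 118.3, 1.95 and 194.1 CPM in arsenic replicates 1 to 4 of day 2. In control replicates 1 to 4 of day 1 it had 224.9, 118.7, 23.8 and 3.14 CPM. Arsenic replicate 3 of day 2 and control replicate 4 of day 1 were the low libraries.

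Set E comprised Dapma7bEVm011908t1, Dapma7bEVm016402t1 and Dapma7bEVm016950t1, and 1 library carried more of its spread than in the members of the other sets. Dapma7bEVm016402t1 had 426.8, 693.6, 17.95 and 1076 CPM in arsenic replicates 1 to 4 of day 4. Dapma7bEVm016950t1 had 129.3, 370.9, 6.41 and 468.7 CPM in those libraries. Replicate 3 was low in both genes, and it held 39.2% of the within-group sum of squares of Dapma7bEVm016402t1 and 35.3% of that of Dapma7bEVm016950t1, the highest shares among the 56 members. Copper replicates 1 and 2 of day 4 were low as well, at 113.8 and 136.7 CPM for Dapma7bEVm016402t1, against 712.5 and 480.3 CPM in replicates 3 and 4. In the copper libraries of day 2 the same gene was even, at 1016, 959.9, 1078 and 1056 CPM.

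**Figure D4:**
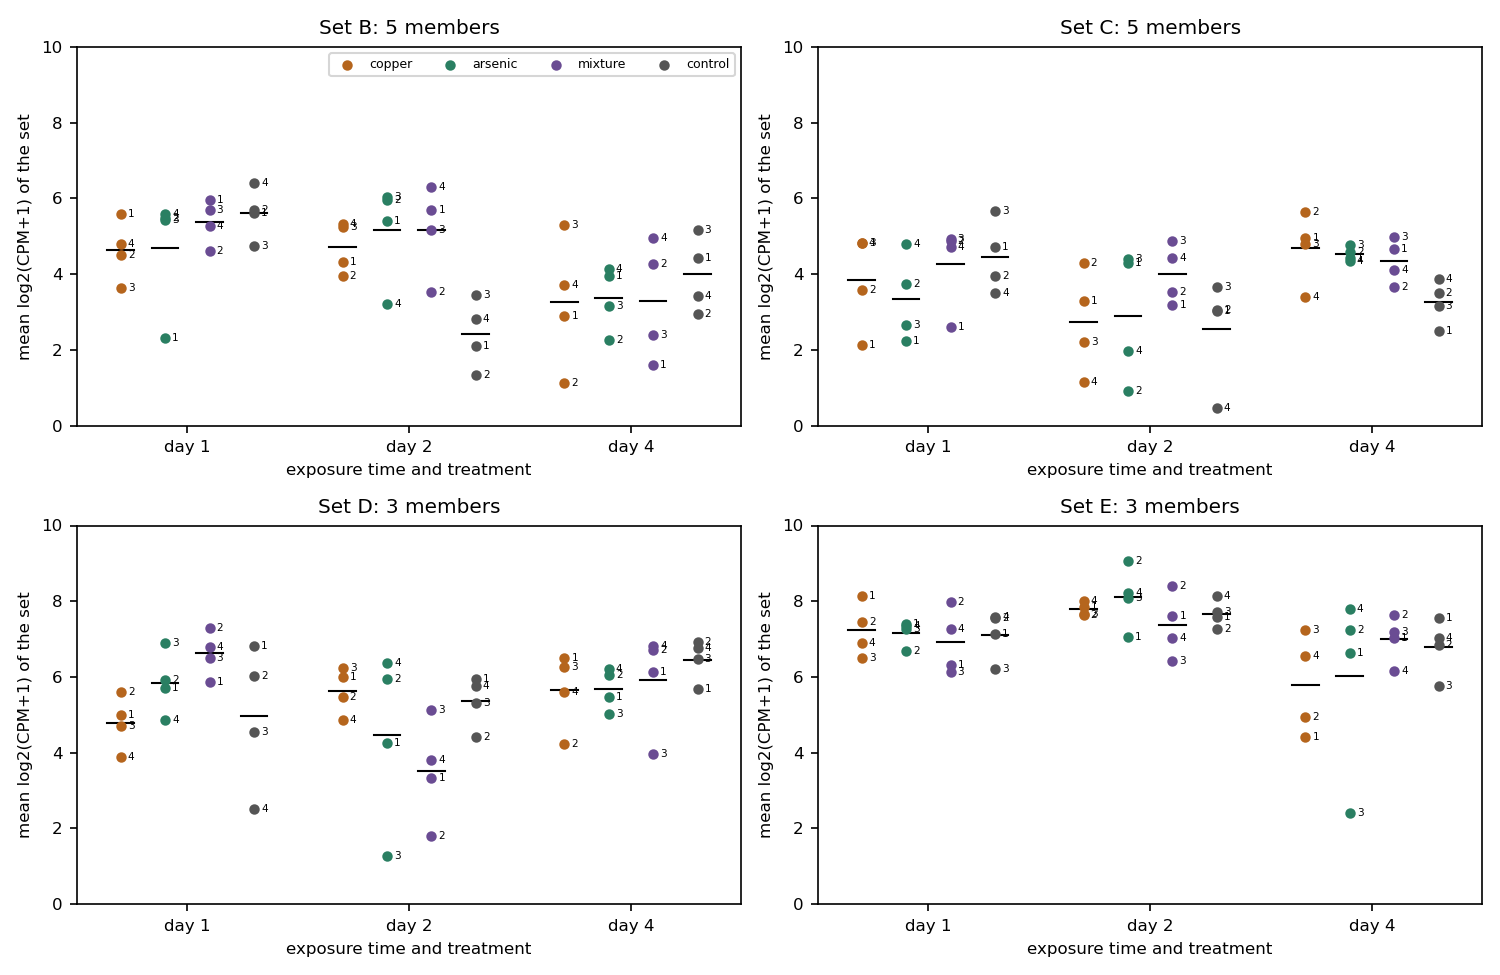
Mean log2(CPM+1) of the members of sets B, C, D and E (vertical axis) in each library, by exposure time and treatment; points are libraries with their replicate number and bars are group means. Single low libraries stand out, among them arsenic replicate 1 of day 1 in set B at 2.31 and arsenic replicate 3 of day 4 in set E at 2.41.

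Set F paired Dapma7bEVm008118t1 and Dapma7bEVm016549t1 (r 0.94). Dapma7bEVm016549t1 had 3.87, 35.6, 34.2 and 0.177 CPM in copper replicates 1 to 4 of day 2, the widest group of the pair. Copper replicates 1 and 4, which were high in set A, were low here, and the r between the means of sets A and F over all 48 libraries was −0.338. Set G paired Dapma7bEVm008689t1 and Dapma7bEVm012459t1 (r 0.94), and Dapma7bEVm012459t1 had 5.11, 23.6, 2.49 and 1.58 CPM in control replicates 1 to 4 of day 2. Control replicate 2 stood above the other 3 controls. The G pair had a further 84 rows at an r of 0.7 or more, with pooled SDs of 0.114 to 0.679.

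Set H, the pair Dapma7bEVm017608t1 and Dapma7bEVm017634t1 (r 0.96), had no counts in some libraries of day 1 and a moderate level in the others. Dapma7bEVm017608t1 had 27.2, 0, 0 and 21.7 CPM in arsenic replicates 1 to 4 of day 1, 17.2, 0, 0 and 0 CPM in the mixture, and 1.85, 18.5, 9.86 and 15.3 CPM in controls. Dapma7bEVm017634t1 had 23.7, 0, 0 and 23.4 CPM in those arsenic libraries, 18.3, 0, 0 and 0 CPM in the mixture, and 2.39, 23.7, 14.7 and 14.6 CPM in controls. The same 5 libraries were at 0 in both genes. The other 43 libraries held counts of both, including every library of days 2 and 4, and 0 other rows reached an r of 0.7 with the pair.

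**Figure D5:**
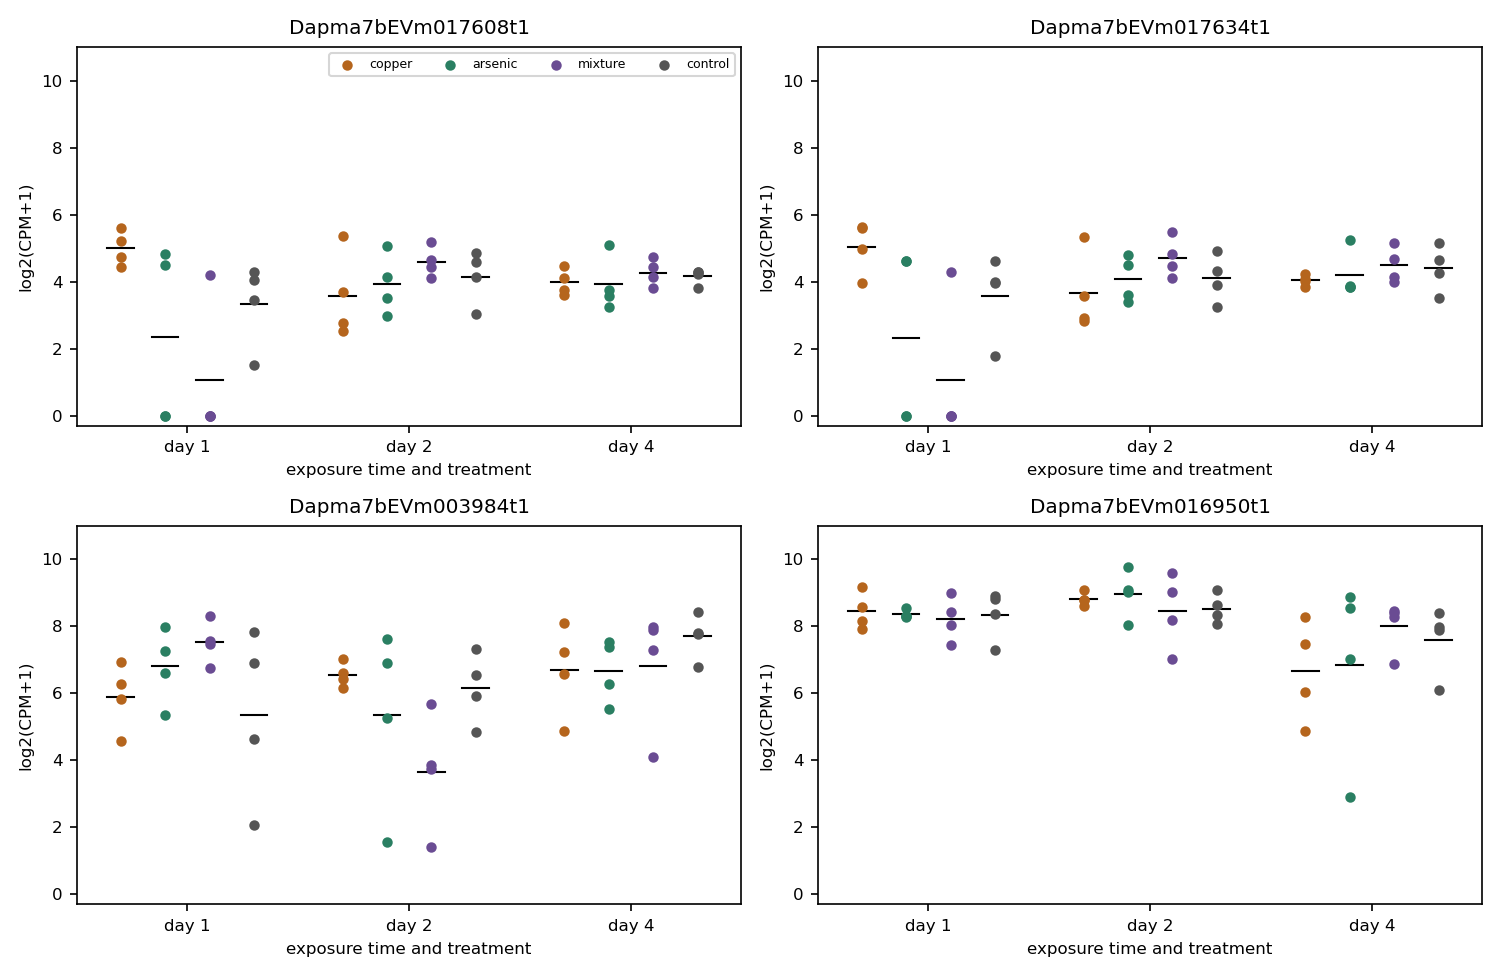
Level as log2(CPM+1) (vertical axis) of 4 members in each library, by exposure time and treatment; points are libraries and bars are group means. The 2 upper panels show set H, where arsenic replicates 2 and 3 and mixture replicates 2, 3 and 4 of day 1 lie at 0; the lower panels show Dapma7bEVm003984t1 of set D and Dapma7bEVm016950t1 of set E.

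The 10 members in no set included the widest of all. Dapma7bEVm024782t1 (pooled SD 1.94) had 91.0, 0.288, 21.4 and 0.386 CPM in copper replicates 1 to 4 of day 4, and 52.4, 158.8, 330.1 and 48.6 CPM in the controls of that day. Copper replicates 2 and 4 held 4 and 6 counts, just above the floor of 3, and the copper range overlapped the control range only through replicate 1. The gene was near 0 in other treatments too, at 0.356 CPM in arsenic replicate 3 and 0.589 CPM in mixture replicate 2 of day 4. Its highest r with another member was 0.22.

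Dapma7bEVm019337t1 (pooled SD 1.75) had 0, 0, 0.199 and 0.0844 CPM in copper replicates 1 to 4 of day 1, and 35.2, 16.0, 21.3 and 0.523 CPM in the controls. The copper libraries lay below the controls, with replicates 1 and 2 at 0. In arsenic on day 1 the values were 0.311, 0, 0 and 16.6 CPM, so that replicate 4 alone stood at the control level. Dapma7bEVm002046t1 was low in most libraries and high in few, at 294.9 CPM in mixture replicate 1 of day 4 and at 131.5 and 43.3 CPM in control replicates 1 and 4 of day 4. These 3 libraries were its highest of the 48, and no other member had them as its highest 3. Dapma7bEVm000523t1 was at 0 in 9 libraries, and between 0.752 and 11.6 CPM where copper and control libraries of day 1 held counts. The others were Dapma7bEVm000581t1, Dapma7bEVm004488t1, Dapma7bEVm005379t1, Dapma7bEVm010088t1, Dapma7bEVm010847t1 and Dapma7bEVm027009t1, with mean levels of 6.27 to 74.0 CPM and pooled SDs of 1.01 to 1.36.

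Whether the spread recurs in libraries the choice did not use was described by applying the rule to 2 days and reading the day left out. Choosing on days 2 and 4 gave 58 rows, of which 24 (41.4%) had an SD of 1 or more on day 1, against 0.251% of the other rows. Choosing on days 1 and 4 gave 41 rows, of which 26 (63.4%) had such an SD on day 2, against 0.585%. Choosing on days 1 and 2 gave 65 rows, of which 27 (41.5%) had it on day 4, against 0.145%. The wide spread of these rows was thus found again on each day that had not chosen them, although more of them stood below an SD of 1 than above it on days 1 and 4.

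The co-variation was also seen in the day left out. The largest set clustered on the other days held 28, 11 and 26 rows for days 1, 2 and 4 left out, of which 24, 11 and 23 belong to set A. In the 16 libraries of the day left out, the mean pairwise r of these rows was 0.65 on day 1, 0.931 on day 2 and 0.749 on day 4. The mean pairwise r of the other rows in those libraries was 0.0152, 0.0462 and 0.0401. This background is over all pairs of the other rows, with no set picked from them. Sets picked the same way from those rows were not examined, so the contrast does not show co-variation particular to the members.

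Group means were not used by the rule, and were compared with edgeR's quasi-likelihood F test over all 15813 tested genes, called at a Benjamini-Hochberg adjusted p under 0.05. The spread within groups, which the rule did use, enters this test and makes a call harder for members. Each exposure was set against the controls of its day, so the 3 exposures of a day share 4 control libraries. In the 9 comparisons, 0 of 504 member tests were called, where 0.0365% of all tests over 15813 genes were called. At an unadjusted p under 0.05 there were 40 member tests (7.94%), against 5.09% over all genes, and DESeq2's Wald test called 5 (0.109% over all genes). The smallest edgeR adjusted p of a member was 0.153. The SE of a member's log2 fold change had a median of 0.79, so that only large shifts could pass.

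The smallest adjusted p belonged to set B in the mixture on day 2. Dapma7bEVm029052t1 had 55.1, 13.96, 28.9 and 87.4 CPM in the mixture libraries and 3.24, 1.16, 6.72 and 9.48 CPM in the controls. The groups did not overlap, but edgeR gave a log2 fold change of 3.18 (SE 0.87) with an adjusted p of 0.153, and DESeq2 gave an adjusted p of 0.0368. All 5 members of the set had fitted log2 fold changes of 2.49 to 3.72 there, with edgeR adjusted p from 0.153 to 0.263 and 0 calls (0.145% of all genes were called). DESeq2 called 3 of them (0.658% of all genes were called by it in this comparison), Dapma7bEVm002161t1 and Dapma7bEVm015713t1 being the other two, with adjusted p of 0.0341 and 0.0493. Against the same controls the median fitted log2 fold change of the set was 2.49 with copper and 3.15 with arsenic, without a call by either tool. The mean log2(CPM+1) of the set was 5.61, 2.42 and 3.99 in the controls of days 1, 2 and 4. In the mixture it was 5.38, 5.17 and 3.30 on those days. The controls of day 2 thus had the lowest mean of all groups, and the reason was not tested. The 5 members were grouped because they vary together, so they are not separate observations.

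DESeq2 called 2 further member tests. Dapma7bEVm019337t1 was lower with copper on day 1 (DESeq2 adjusted p 0.00658, edgeR adjusted p 0.614), where 0.00632% of genes were called by DESeq2, which is this gene alone. Dapma7bEVm002046t1 was lower with copper on day 4 (DESeq2 adjusted p 0.0355, edgeR adjusted p 0.738), where 0.101% were called. Controls of this gene were 131.5, 0.569, 2.79 and 43.3 CPM, against copper values of 2.16, 1.15, 1.88 and 0.193 CPM, and control replicate 2 lay within the copper range.

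Set A had fitted levels above control in 24 of 24 members with copper on day 1 and in 24 of 24 with arsenic on day 1, with median log2 fold changes of 1.38 and 1.35. The median over all genes tested was −0.01 for copper and 0.00 for arsenic. Set A was formed from members that vary together, so the 24 directions are not separate observations. Both comparisons used the same 4 controls, of which replicate 2 lay below the group mean in all 24 members. None of these 48 tests passed by edgeR, which called 0% of all genes with copper and 0.0126% with arsenic on that day; the adjusted p ran from 0.881 to 0.981 for copper and from 0.750 to 0.976 for arsenic. The set mean was 5.69, 4.71, 4.94 and 6.05 in the copper libraries, 5.94, 5.73, 5.10 and 4.61 in the arsenic libraries, and 4.32, 2.48, 5.07 and 3.36 in the controls. Control replicate 3 lay within the ranges of both exposures and control replicate 2 far below them. On day 2 the median was −0.03 with copper and −0.56 with arsenic, and on day 4 it was −0.24 and 0.37. With the mixture 13 of 24 members had fitted levels above control on day 1 (median 0.17), 24 of 24 on day 2 (median 0.40) and 3 of 24 on day 4 (median −0.52), and edgeR called 0 of these, with a smallest adjusted p of 0.738. The fitted direction of the set was therefore not the same on the 3 days.

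The days were compared as averages over the 4 treatments, and both comparisons below use the libraries of day 2. For day 2 against day 1, 3 of 56 members (5.36%) were called, 2 higher and 1 lower, where 15.6% of all genes were called (7.54% higher and 8.06% lower). For day 4 against day 2, 7 members (12.5%) were called, 4 higher and 3 lower, where 24.4% of all genes were called (12.2% higher and 12.1% lower). DESeq2 called 4 and 7 members, where it called 17.3% and 25.8% of all genes. The share of members called was below that of all genes in both comparisons, while the median size of their fitted log2 fold changes was larger, at 0.61 and 0.54 against 0.14 and 0.17 over all genes. Both differences follow at least in part from choosing members for a wide spread within groups, so they say little about the members.

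Dapma7bEVm019337t1 had medians of 0.417, 11.499 and 11.3 CPM on days 1, 2 and 4, with lowest values of 0, 0.186 and 0.0833 CPM and highest values of 35.2, 86.6 and 33.4 CPM (16 libraries each). The ranges overlapped widely. Its rise on day 2 against day 1 had a log2 fold change of 2.54 (SE 0.77, edgeR adjusted p 0.0184) and passed in each of the 54 alternative analyses, which changed a setting or left out libraries. Dapma7bEVm011908t1 of set E had medians of 13.9, 27.5 and 12.01 CPM on the 3 days, with the highest on day 2. It rose on day 2 (0.96, SE 0.34, edgeR adjusted p 0.0495) and fell on day 4 against day 2 (−1.03, SE 0.35, edgeR adjusted p 0.0260). The rise was lost in 33 of these 54 (highest adjusted p 0.101), and the fall was lost without arsenic replicate 2 or mixture replicate 2 of day 2 (highest adjusted p 0.06).

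The other members of set E fell with it on day 4. Dapma7bEVm016950t1 averaged 342 ± 115, 448 ± 187 and 221 ± 140 CPM on days 1, 2 and 4 (SD, n = 16 each). Its fall on day 4 against day 2 had a log2 fold change of −1.01 (SE 0.31, edgeR adjusted p 0.0166). Dapma7bEVm016402t1 averaged 709 ± 321, 1054 ± 399 and 518 ± 294 CPM (SD, n = 16 each), and its fall had a log2 fold change of −0.997 (SE 0.30, edgeR adjusted p 0.0118). Averaged over the treatments, all 3 members of set E were therefore lower on day 4 than on day 2 by about the same amount. On the log scale the fall of the set mean was uneven over the treatments, in part through single low libraries. The mean log2(CPM+1) of the set on days 2 and 4 was 7.79 and 5.80 with copper and 8.11 and 6.02 with arsenic. It was 7.36 and 7.01 with the mixture and 7.67 and 6.80 in control. On day 4 the set means were 6.63, 7.23, 2.41 and 7.80 in arsenic replicates 1 to 4. They were 4.42, 4.95, 7.25 and 6.56 in copper replicates 1 to 4. Against control on day 4, the median fitted log2 fold change of the set was −0.07 with arsenic and −0.60 with copper. The difference between treatments in the fall was not tested.

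Dapma7bEVm020279t1 of set C went the other way. Its medians were 12.01, 4.26 and 12.3 CPM on days 1, 2 and 4. Its log2 fold change on day 2 against day 1 was −1.18, a fall (SE 0.39, edgeR adjusted p 0.0344), and it rose on day 4 against day 2 (1.36, SE 0.39, edgeR adjusted p 0.00946). The fall was lost when control 3, copper 3 or arsenic 4 of day 1 was left out, when copper 4, mixture 1 or mixture 2 of day 2 was left out, and in a fit of days 1 and 2 alone (highest adjusted p 0.093).

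In set D, Dapma7bEVm003984t1 averaged 123 ± 89.8, 71.6 ± 57.5 and 159.5 ± 93.6 CPM on the 3 days (SD, n = 16 each) and rose on day 4 against day 2 (1.41, SE 0.44, edgeR adjusted p 0.0166). Dapma7bEVm001223t1 averaged 29.5 ± 20.6, 18.1 ± 12.3 and 35.3 ± 19.1 CPM (SD, n = 16 each) and rose as well (1.08, SE 0.34, edgeR adjusted p 0.0186). Both genes had lower fitted levels with the mixture on day 2 than in control, without a call. The mean log2(CPM+1) of set D on days 2 and 4 was 5.64 and 5.65 with copper and 4.46 and 5.69 with arsenic. It was 3.51 and 5.91 with the mixture and 5.36 and 6.46 in control, so with copper the set mean hardly changed on this scale. Replicate 2 was the low copper library of day 4, with set means of 6.51, 4.23, 6.26 and 5.61 in replicates 1 to 4. In CPM, Dapma7bEVm003984t1 had 96.5, 85.2, 127.5 and 69.5 in copper replicates 1 to 4 of day 2. On day 4 it had 268.6, 28.0, 148.0 and 94.5 CPM there. The difference in rise between treatments was not tested.

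Dapma7bEVm002046t1 was called as higher on day 4 than on day 2. Its medians were 4.31, 1.91 and 2.02 CPM on days 1, 2 and 4, and its log2 fold change was 1.92 (SE 0.66, edgeR adjusted p 0.0293). The call held in 47 of the 54 alternative analyses (highest adjusted p 0.935). It was lost without control replicate 1, copper replicate 1, arsenic replicate 4 or mixture replicate 1 of day 4. It was also lost with the replicate number as a block and in a fit of days 2 and 4 alone. The fitted change turned slightly negative when the 3 highest libraries of this gene were left out together. That run was added after seeing the data, and a lower value follows from its choice of libraries.

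The number of members called for day 2 against day 1 depended on single libraries. It was 1 without copper replicate 3 of day 1, copper replicate 4 of day 2 or mixture replicate 2 of day 2. It was 5 without mixture replicate 1 of day 1, and 6 without arsenic replicate 1 of day 1 or copper replicate 3 of day 2. Without mixture replicate 1 of day 1, 2 member tests were called among the exposure comparisons, against 0 with all libraries. The share of all genes called in these fits is not given, so the changes cannot be read as particular to the members.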

How the data were processed

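RNA of whole Daphnia magna was sequenced in 48 libraries. The deposited table holds 1 count per row and library, and per the file headers each column is 1 library. The tools named, per the submitters' processing notes, were HTSeq, edgeR and TopHat2 2.1.1, with no role or order stated; the sources used here give no build, annotation or strand setting. Its name calls the table normalised, yet the numbers look like counts that were not scaled: a score of the gaps that rescaling and rounding leave among low values was at most 4.66 as deposited and at least 6.07 after multiplication by 0.95.

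CPM is count per column total times 1e+06, and levels use log2(CPM+1), a pseudocount of 1. Counts were tested with edgeR 4.0.16 (R 4.3.3; TMM, quasi-likelihood F test, two-sided, prior count 0.125) in 1 model of 12 groups over 48 libraries. A row was tested with at least 14 counts in at least 4 libraries, which left 15813 rows and removed 253. The common biological coefficient of variation was 23.53%, with 36 residual and 5.076 prior degrees of freedom. Chi-square over its degrees of freedom was at least 10.1 in the 72 pairs of libraries within groups, so none was counted as a repeat of another. The steps were tested on simulated data. Descriptive values used Python 3.11.15, numpy 2.4.6, scipy 1.17.1 and pandas 2.3.3.

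Over all rows, same-numbered libraries of a day did not deviate together in every pair, so the replicate number was not used as a pairing; members of set A followed it in part. Alternatives were other pseudocounts, TMM-scaled CPM, no level filter, DESeq2 1.42.0, fits of single pairs of days, the replicate number as a block, and each library left out in turn; leaving out 3 day-4 libraries together was added after seeing the data. The members and lists were chosen with earlier results of these data known. Genes named by rule were the members nearest to the mean of a set of at least 10, the 3 with the widest pooled SD, those nearest to the threshold, the called members with the largest rises and falls, and those with the largest share of spread in 1 library; others were chosen after their values were seen.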

Additional observations from a re-analysis of the deposited data

Results flagged for a closer look

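In 16 measures (the means of sets A to E and the named members), each of the 12 groups of 4 libraries was examined for a library far from the other 3, by Dixon's criterion. Of 192 groups, 11 held such a library, where chance alone gives about 1 in 20 groups, or 9.6. The members were chosen for their spread within groups, so this count is a description and no test. Each value below is on the log2(CPM+1) scale.

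The mean of set B was 2.31 in arsenic replicate 1 of day 1, where the others were 5.43 or more. The mean of set C was 2.599 in mixture replicate 1 of day 1, and that of its member Dapma7bEVm020279t1 was 2.22 in the same library, where the others were 4.71 or more for the set. In control replicate 1 of day 4 Dapma7bEVm020279t1 was at 2.09, against 3.10 or more. The mean of set E was 6.68 in arsenic replicate 2 of day 1, and its member Dapma7bEVm016950t1 was at 8.54 in arsenic replicate 3 of day 1, above the other 3, and at 6.86 in mixture replicate 4 of day 4, below them. Dapma7bEVm011908t1, also of set E, was at 5.05 in mixture replicate 2 of day 2, above the others. Dapma7bEVm024782t1 was at 1.16 in mixture replicate 2 of day 1, where the others were 6.49 or more. Dapma7bEVm019337t1 was at 4.14 in arsenic replicate 4 of day 1, where the others were at most 0.391, and at 2.42 in mixture replicate 4 of day 2, where the others were 3.58 or more.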

How the results depend on the processing

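The rule gave 56 members. A pseudocount of 2 gave 37, which were all among the 56, while a pseudocount of 0.5 gave 75, TMM-scaled CPM 54 and no level filter 71. Leaving out single libraries gave 51 to 59 members, 18 to 24 members in set A (18 without copper replicate 3 or 4 of day 2), 0 to 2 member calls in the exposure comparisons, 1 to 6 for day 2 against day 1 and 6 to 9 for day 4 against day 2. DESeq2 gave 5 exposure calls, against 0 by edgeR. With the replicate block the rule gave 48 members, 45 of them among the 56. Clustering the original 56 members on deviations with the block removed put 24 of them in sets of at least 10. With the block in the edgeR fit, the calls were 0 for the exposures, 3 for day 2 against day 1 and 6 for day 4 against day 2. The block lost the calls of Dapma7bEVm002046t1 (edgeR adjusted p 0.219) and of Dapma7bEVm011908t1 for day 2 (0.0698). Over all rows the numbers gave no consistent pairing: r of deviations averaged 0.0033 for same-numbered libraries of a day, from −0.547 to 0.428, and −0.0004 for others. Of the same-numbered pairs 29 of 72 exceeded 0.1, and 18 of 48 libraries correlated best with their own number. No chance level is given beside these counts. Without control 1, control 4 and mixture 1 of day 4, left out together after seeing the data, the change of Dapma7bEVm002046t1 was −0.087; these are its own 3 highest libraries, so a lower value follows from the choice. The rises or falls of Dapma7bEVm019337t1, Dapma7bEVm003984t1 and Dapma7bEVm016950t1 passed in 54 of 54 alternatives. Where 1 library changed a call, the cause was not tested. For fits with a library left out or the replicate block, the share of all genes called is not given beside the member counts. At 0 counts a level under the floor cannot be told from absence, and with 4 libraries per group and SDs over 1 only large shifts of these members could be detected.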
